A study of Mus musculus with 24 samples.

Results

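The genes described are 10 acute phase and related genes of mouse liver: the serum amyloid A genes SAA1, SAA2, SAA3 and SAA4, the orosomucoid genes ORM1, ORM2 and ORM3, the lipocalin LCN2, the WAP domain gene WFDC21 and the interleukin 1 receptor antagonist IL1RN. They were chosen by name, with earlier results of these data known. All 10 were found among the 75794 features of the table, 20879 of which are coding. Liver RNA was measured after polyA selection in 24 male-labelled C57BL/6 mice in 4 groups of 6, 7 days after AAV8, an adeno-associated virus that infects liver, was given by tail vein, and the study asked what the loss of growth hormone receptor (GHR) signalling in hepatocytes does to the adult liver. Every animal, controls included, carried the floxed Ghr gene on both alleles (Ghr fl/fl), ate chow, was 10 to 12 weeks old and received 3.5 of vector in all, counted in 1e+11 genome copies. Control mice received Null vector, which has no transgene, and no Cre recombinase. The aHepGHRkd mice received 1.5 of a vector for Cre, which excises the floxed part of Ghr. The aHepGHRkd_rIGF1 mice received that Cre dose with 2 of a vector for rat IGF1, and the aHepGHRkd_STAT5bCA mice received it with 0.75 of a vector for a FLAG-tagged, constitutively active mouse STAT5b. Null vector made up the total, so by these doses the rIGF1 group had none of it.

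Several features limit the groups as models. The thyroxine-binding globulin promoter restricts every transgene to hepatocytes, while RNA came from whole liver, although the samples carry the cell type label Hepatocyte. Cre is present in every group other than Control, so an effect of Cre and an effect of Ghr loss cannot be told apart. The protocol names littermates of both sexes where the sample labels say male. Each group is represented by 1 value per gene in TPM, a level scaled for transcript length and for the total of the group, so no spread between animals can be given. Ratios and p-values are those of the authors' deposited table, which compares aHepGHRkd with Control and each supplemented group with aHepGHRkd. A gene was called higher or lower where the deposited p was under 0.05. The p was read as adjusted over all features, and nothing states whether the 6 animals of a group came from separate litters or cages.

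Acute phase genes encode plasma proteins that hepatocytes make in changed amounts during infection and injury. Interleukin 6 acts on them through STAT3, interleukin 1 acts through NF-kappaB and C/EBP factors, and glucocorticoids strengthen both routes. Serum amyloid A travels on high-density lipoprotein, orosomucoids are glycoproteins that carry drugs and lipids in plasma, and lipocalin 2 withholds iron from bacteria by binding their siderophores.

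The labels were checked by GH pathway genes and cell markers. Ghr stood at 180, 55.1, 58.4 and 49.4 TPM, in the order used for group values throughout (Control, then aHepGHRkd without a supplement, with rIGF1 and with STAT5bCA). The STAT5 target Socs2 stood at 17.6, 1.48, 1.10 and 38.3 TPM. Igf1, which bears on the rIGF1 supplement, stood at 143, 26.2, 114 and 96.4 TPM, and its ratio of 3.89 for rIGF1 over aHepGHRkd was not called by the authors' deposited table (adjusted p = 0.946). How far rat transcripts count toward the mouse gene was not tested. Albumin (Alb), the defining hepatocyte product, lay between 66647 TPM in Control and 86394 TPM in aHepGHRkd_STAT5bCA, and the other 9 hepatocyte markers summed to between 28426 and 32030 TPM. After Ghr loss Ttr was called higher and Tat lower among the 10 hepatocyte markers, and with STAT5bCA Asgr1 was called higher. Markers of other cells were also present, from 168 to 215 TPM in sum for 12 macrophage markers and from 11.6 to 14.5 TPM for the 8 detected of 10 neutrophil markers.

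Hepatocyte Ghr loss was accompanied by higher levels of 6 of the 10 genes and a lower level of 1. SAA1, SAA2, ORM2, ORM3, LCN2 and IL1RN rose between 2.29-fold (SAA1) and 4.36-fold (LCN2) over Control in the authors' deposited table, WFDC21 fell to 0.394 of Control, and SAA3, SAA4 and ORM1 did not pass the test. Among the 14081 coding genes detected (at least 0.1 TPM in a group), 2.41% were called higher and 2.82% lower in that comparison. The median log2 ratio of the 10 genes was 1.28, against 0.03 for those coding genes. In bulk liver RNA, fewer cells of a type and less RNA per cell cannot be told apart, so a changed level may be of either kind.

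With rat IGF1, all 10 deposited ratios to aHepGHRkd were below 1, and ORM1 and WFDC21 were called lower, 2 of 10 genes. No member was called higher. The same share over the detected coding genes was 0.0142% lower, 2 genes in all, so ORM1 and WFDC21 were the only coding genes called, and 0% higher. With active STAT5b, 8 of the 10 ratios to aHepGHRkd were below 1 and ORM2 alone was called lower, while 0.597% of the detected coding genes were called lower and 2.61% higher. The median log2 ratio of the members was -0.91 with rIGF1 and -0.48 with STAT5bCA, where that of the detected coding genes was -0.0042 and -0.0051. These comparisons share the aHepGHRkd animals, so the 3 sets of ratios are not independent of each other. The authors' deposited table gives no unadjusted p.

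**Figure D1:**
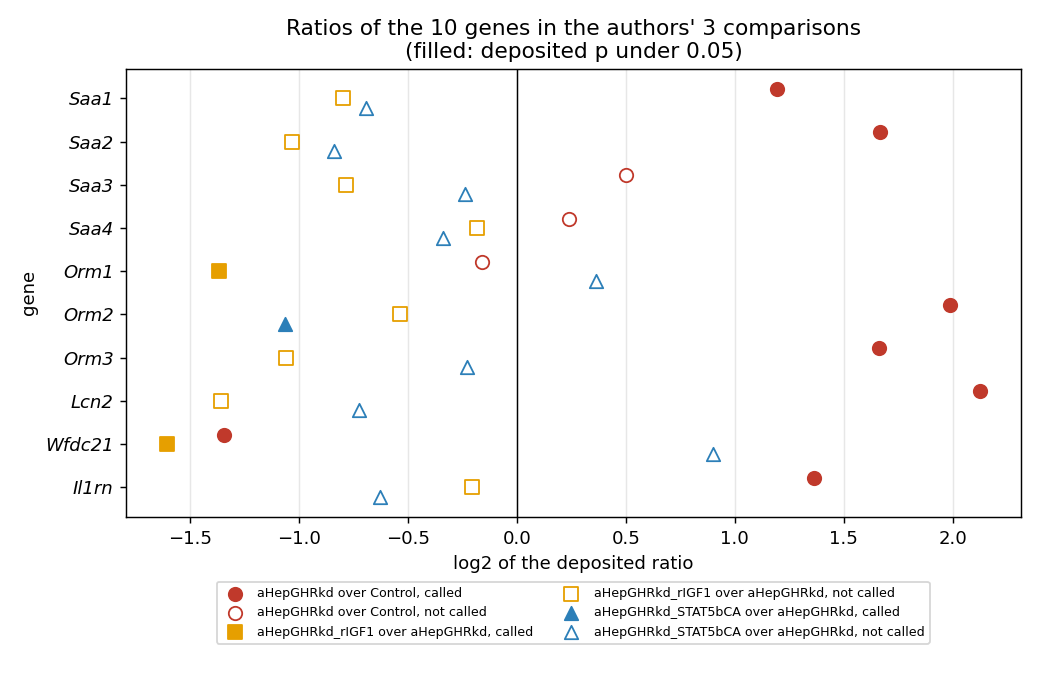
Deposited ratio of each gene on the log2 scale (x axis) in the 3 comparisons, with 1 row per gene (y axis), circles for aHepGHRkd over Control, squares for aHepGHRkd_rIGF1 over aHepGHRkd and triangles for aHepGHRkd_STAT5bCA over aHepGHRkd. Filled symbols have a deposited p under 0.05: 6 circles lie to the right of 0 and 1 to the left, and all 10 squares lie to the left, 2 of them filled.

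The serum amyloid A genes lie together on chromosome 7 of the mm9 build, in the order SAA3 (53967368 to 53971046), SAA4 (53983362 to 53987973), SAA1 (53995867 to 53998350) and SAA2 (54007203 to 54009684), each with 4 exons, SAA2 on the plus strand and the others on the minus strand. SAA1 and SAA2 encode the inducible forms of plasma serum amyloid A. SAA4 encodes the form made constitutively, and SAA3 is also made outside hepatocytes, among others by macrophages and fat cells.

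The 250 bases before the SAA1 and SAA2 start sites are shown because they are the most alike of the members' windows and both genes rose after Ghr loss. They come from the RefSeq promoter table on build GRCm38.p6, at chr7:46742981-46743230 on the minus strand for SAA1 and chr7:46751583-46751832 on the plus strand for SAA2, written 5′ to 3′. Capitals mark the C/EBP-type letters TTGCNNAA, searched on both strands.
SAA1: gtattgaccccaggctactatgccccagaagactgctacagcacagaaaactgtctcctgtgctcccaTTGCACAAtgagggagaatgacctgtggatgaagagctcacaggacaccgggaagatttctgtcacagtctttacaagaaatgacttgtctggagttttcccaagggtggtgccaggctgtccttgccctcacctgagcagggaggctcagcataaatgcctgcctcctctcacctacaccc
SAA2: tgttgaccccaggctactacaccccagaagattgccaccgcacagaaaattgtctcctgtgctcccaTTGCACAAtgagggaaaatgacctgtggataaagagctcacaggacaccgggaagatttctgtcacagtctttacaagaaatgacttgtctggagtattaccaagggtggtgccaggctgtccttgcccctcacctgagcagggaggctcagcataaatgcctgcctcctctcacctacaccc
The windows were identical at 238 of 249 aligned bases (95.6%). Both hold the letters TTGCACAA, which begin 182 bases before the SAA1 start and 183 bases before the SAA2 start.

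SAA1 stood at 2644 TPM in Control and 6057 TPM in aHepGHRkd, and at 3763 TPM with rIGF1 and 3656 TPM with STAT5bCA. It ranked 44 among all coding genes by TPM in Control and 18 in aHepGHRkd. The aHepGHRkd level was the highest and the Control level the lowest, with both supplemented groups between them. By the authors' deposited table, SAA1 rose 2.29-fold over Control (adjusted p = 0.000156), and neither ratio to aHepGHRkd passed, 0.619 with STAT5bCA (adjusted p = 0.342) and 0.575 with rIGF1 (adjusted p = 1).

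SAA2 stood at 1736, 5463, 2896 and 2996 TPM. It was again highest in aHepGHRkd and lowest in Control, and the supplemented groups lay close to each other. The authors' deposited table gives SAA2 a 3.17-fold rise over Control (adjusted p = 7.73e-07) and ratios to aHepGHRkd of 0.559 with STAT5bCA (adjusted p = 0.283) and 0.490 with rIGF1 (adjusted p = 0.827), neither of which passed. The level of SAA1 relative to SAA2, both per length, was 1.52 in Control and 1.11 in aHepGHRkd, and it was 1.30 with rIGF1 and 1.22 with STAT5bCA.

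SAA3 stood at 30.1, 42.3, 26.6 and 34.9 TPM, far below SAA1 and SAA2. Its lowest group was aHepGHRkd_rIGF1, not Control. The ratio of SAA3 to Control in aHepGHRkd was 1.42 (adjusted p = 1) in the authors' deposited table, and its ratios to aHepGHRkd were 0.582 and 0.848 with rIGF1 and STAT5bCA (adjusted p = 1 for both).

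SAA4 stood at 658, 785, 742 and 601 TPM, with its lowest value in aHepGHRkd_STAT5bCA. The highest group was 1.31 times the lowest, the narrowest range of the 10 genes. No deposited comparison passed for SAA4: the authors' deposited table gives 1.18 over Control (adjusted p = 1), 0.790 with STAT5bCA (adjusted p = 0.389) and 0.882 with rIGF1 (adjusted p = 1). The 4 serum amyloid A genes together summed to 5067, 12348, 7428 and 7288 TPM, of which SAA1 and SAA2 made up 4379, 11521, 6659 and 6652.

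**Figure D2:**
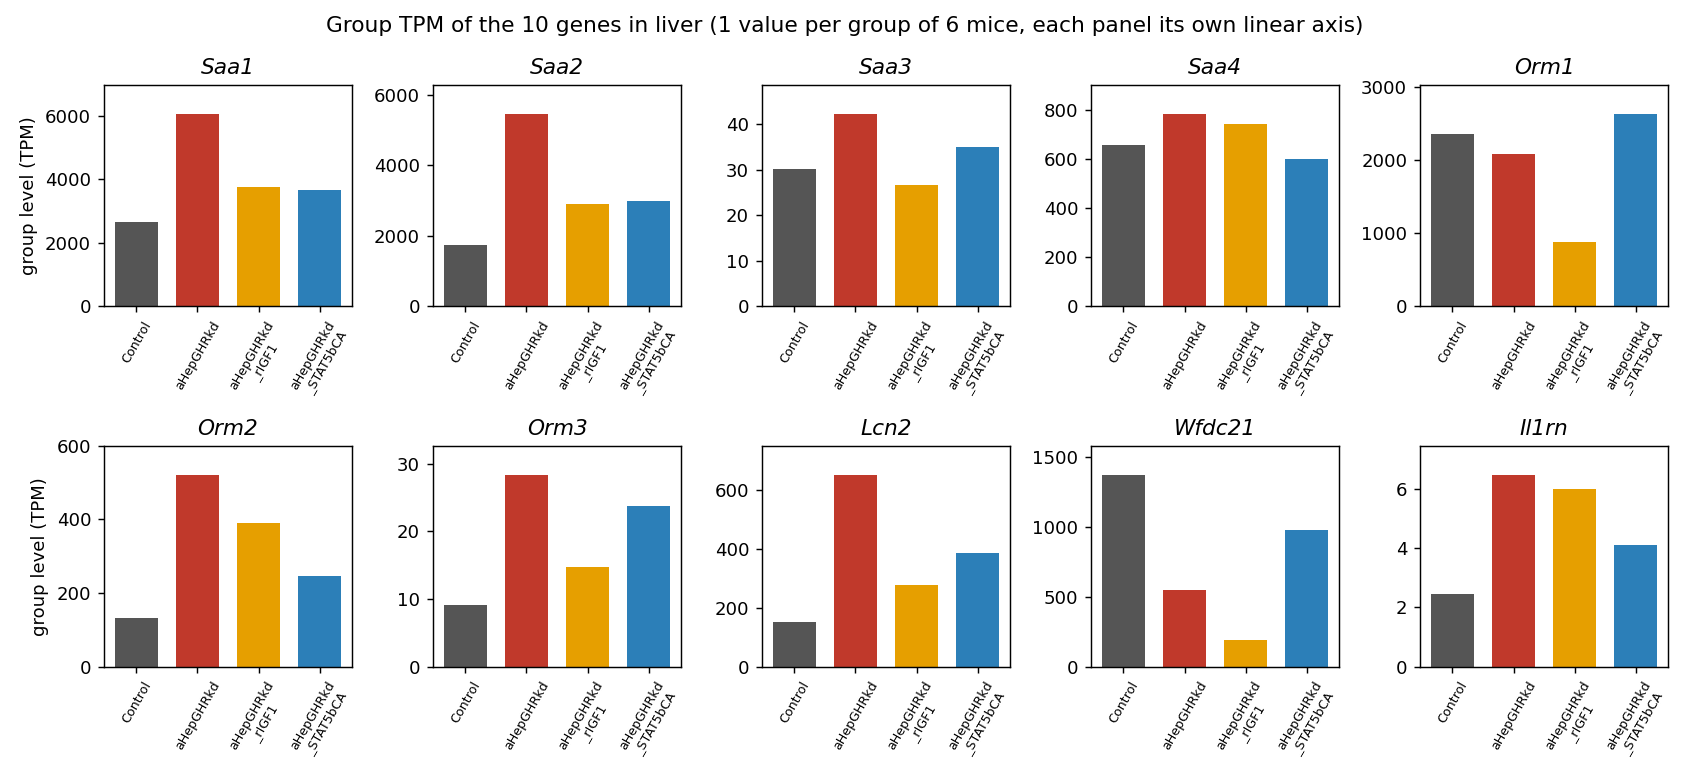
Group level of each gene in TPM (y axis, each panel with its own linear scale from 0), with 1 bar per group and no error bar because the table holds 1 value per group. SAA1 to SAA4, ORM2, ORM3, LCN2 and IL1RN peak in aHepGHRkd, ORM1 is lowest in aHepGHRkd_rIGF1 at 873 TPM, and WFDC21 runs from 1374 TPM in Control down to 193 TPM in aHepGHRkd_rIGF1.

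The orosomucoid genes follow each other on the plus strand of chromosome 4 of mm9, each with 6 exons: ORM1 (63005590 to 63009197), ORM3 (63017196 to 63020545) and ORM2 (63023483 to 63026911). They encode alpha-1-acid glycoproteins, which share the lipocalin fold. ORM1 had the highest level of the 3 in every group, and the genes did not move together.

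The windows before ORM3 (chr4:63355908-63356157) and ORM2 (chr4:63362199-63362448), plus strand of GRCm38.p6 in the RefSeq table, are shown beside these values because they are close copies whose genes both rose after Ghr loss. The table used has no entry for ORM1. Capitals mark TTGCNNAA, nearer the middle, and the TATA box letters TATAAA near the end.
ORM2: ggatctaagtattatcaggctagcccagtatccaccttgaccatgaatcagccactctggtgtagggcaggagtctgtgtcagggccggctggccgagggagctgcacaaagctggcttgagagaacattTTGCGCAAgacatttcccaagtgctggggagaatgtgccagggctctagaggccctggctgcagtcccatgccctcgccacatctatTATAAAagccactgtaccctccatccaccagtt
ORM3: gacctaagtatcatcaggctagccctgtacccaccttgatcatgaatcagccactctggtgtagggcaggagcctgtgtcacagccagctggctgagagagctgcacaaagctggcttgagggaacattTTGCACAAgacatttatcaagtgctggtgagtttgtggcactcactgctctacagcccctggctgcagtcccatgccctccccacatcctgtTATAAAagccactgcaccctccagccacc
They were identical at 218 of 245 aligned bases (89.0%). The C/EBP-type letters read TTGCGCAA, 120 to 113 bases before the start, in ORM2 and TTGCACAA, 121 to 114 bases before it, in ORM3.

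ORM1 stood at 2360 TPM in Control and 2091 TPM in aHepGHRkd, and at 873 TPM with rIGF1 and 2636 TPM with STAT5bCA. The rIGF1 group was low and the other groups lay near each other. In the authors' deposited table ORM1 did not pass against Control (ratio 0.895, adjusted p = 1), fell to 0.388 of aHepGHRkd with rIGF1 (adjusted p = 0.0499) and had a ratio of 1.29 with STAT5bCA (adjusted p = 1). Of the members' calls, the fall of ORM1 with rIGF1 is the one nearest the threshold.

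ORM2 stood at 133, 522, 390 and 247 TPM. Control was the lowest group, aHepGHRkd the highest, and STAT5bCA lay nearer to Control than rIGF1 did. ORM2 rose 3.96-fold over Control (adjusted p = 5.90e-13) and fell to 0.479 of aHepGHRkd with STAT5bCA (adjusted p = 0.000881), while 0.690 with rIGF1 did not pass (adjusted p = 1, all from the authors' deposited table). It was the only member called in opposite directions by Ghr loss and by a supplement.

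ORM3 stood at 9.14, 28.4, 14.7 and 23.8 TPM. The order of the groups was that of LCN2 and SAA2, with aHepGHRkd first, then STAT5bCA, rIGF1 and Control. ORM3 rose 3.16-fold over Control (adjusted p = 0.0190), with ratios to aHepGHRkd of 0.855 with STAT5bCA (adjusted p = 1) and 0.481 with rIGF1 (adjusted p = 0.994), all from the authors' deposited table.

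Taken as a family, the orosomucoids had similar sums in Control and aHepGHRkd but a different make-up. The 3 genes summed to 2503, 2642, 1278 and 2907 TPM. The level of ORM1 was 17.7 times that of ORM2 in Control and 4.01 times in aHepGHRkd, and it was 2.24 times with rIGF1 and 10.7 times with STAT5bCA.

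Near-identical sequence limits how well the paralogs can be separated. The matched GENCODE transcripts of SAA1 and SAA2 were 94.4% identical where aligned and shared 74 words of 50 bases, 13.2% of the words of SAA1. ORM1 and ORM2 were 91.0% identical and shared 148 such words, 20.4% of those of ORM1. Reads inside shared words cannot be assigned by sequence, and the sources used here do not say how the authors counted them, so the values within each pair are uncertain. Of the 90 ordered pairs of members, 10 shared any such word.

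LCN2 (chromosome 2, 32240157 to 32243259 on mm9, minus strand, 6 exons) had the largest rise of the 10 genes after Ghr loss. Its promoter window (chr2:32387740-32387989, minus strand, GRCm38.p6, RefSeq table) is shown for that reason, with TTGCNNAA in capitals.
LCN2: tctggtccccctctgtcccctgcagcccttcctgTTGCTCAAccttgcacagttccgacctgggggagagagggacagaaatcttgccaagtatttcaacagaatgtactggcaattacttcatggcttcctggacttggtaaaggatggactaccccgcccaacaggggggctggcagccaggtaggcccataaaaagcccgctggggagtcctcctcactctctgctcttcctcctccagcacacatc
The letters TTGCTCAA lie 216 to 209 bases before the start, further out than in the orosomucoid windows.

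LCN2 stood at 152 TPM in Control and 654 TPM in aHepGHRkd, and at 277 TPM with rIGF1 and 388 TPM with STAT5bCA. Control was the lowest group, and both supplemented groups lay between Control and aHepGHRkd. From the authors' deposited table, LCN2 rose 4.36-fold over Control (adjusted p = 1.48e-10). Against aHepGHRkd, its ratio in the authors' deposited table was 0.391 with rIGF1, about that of ORM1 but not called (adjusted p = 0.101), and 0.605 with STAT5bCA (adjusted p = 0.855).

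WFDC21 (chromosome 11, 83560442 to 83566148 on mm9, plus strand, 3 exons) encodes a small secreted protein with a WAP domain, a disulfide-bonded fold found in several protease inhibitors. It stood at 1374, 548, 193 and 979 TPM. It was the only member highest in Control, and its lowest group was rIGF1, as for ORM1 and SAA3. Its group order differed from that of ORM1 only in whether Control or STAT5bCA came first. WFDC21 fell to 0.394 of Control after Ghr loss (adjusted p = 0.00169) and to 0.329 of aHepGHRkd with rIGF1 (adjusted p = 0.0114), and its ratio of 1.86 with STAT5bCA did not pass (adjusted p = 0.405), all from the authors' deposited table. It was the only member called in more than 1 comparison with the same direction. The rIGF1 level was 0.141 of the Control level by TPM, a pair of groups the authors' deposited table does not test.

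IL1RN (chromosome 2, 24192380 to 24207011 on mm9, plus strand) encodes the secreted antagonist that occupies the interleukin 1 receptor without signalling. It had the lowest level of the members in every group, at 2.46, 6.47, 6.00 and 4.10 TPM. The rIGF1 group stayed close to aHepGHRkd, and STAT5bCA lay between that and Control. IL1RN rose 2.57-fold over Control (adjusted p = 4.35e-08), with ratios to aHepGHRkd of 0.647 with STAT5bCA (adjusted p = 0.461) and 0.867 with rIGF1 (adjusted p = 1), all from the authors' deposited table.

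Features antisense to members need care, since the sources used here do not state whether strand was used in counting, and reads of a gene and of its antisense partner cannot then be told apart. The noncoding feature NC_AS_C2_1207, opposite LCN2, stood at 13.5, 58.1, 24.5 and 34.2 TPM. That was between 8.83% and 8.89% of the LCN2 level in every group. NC_AS_C11_20912, opposite WFDC21, stood at 93.0, 38.7, 14.8 and 66.6 TPM, between 6.77% and 7.63% of WFDC21. In the authors' deposited table NC_AS_C2_1207 was called higher after Ghr loss (4.38-fold, adjusted p = 1.21e-10), as LCN2 was. NC_AS_C11_20912 was called lower after Ghr loss (0.412, adjusted p = 0.00275) and with rIGF1 (0.355, adjusted p = 0.0232), as WFDC21 was (the authors' deposited table). NC_AS_C4_3310, opposite all 3 orosomucoid genes, stood at 73.3, 77.3, 37.9 and 84.7 TPM and, like ORM1, was lowest with rIGF1.

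Summed over the 10 genes, the level was 9099 TPM in Control (0.910% of all TPM) and 16198 TPM in aHepGHRkd (1.62%), and it was 9183 TPM with rIGF1 (0.918%) and 11566 TPM with STAT5bCA (1.16%). The similar sums of Control and rIGF1 had different contents. SAA1 and SAA2 together stood at 4379 TPM in Control and 6659 with rIGF1, while the other 8 genes stood at 4719 and 2523. In aHepGHRkd those 8 genes summed to 4678 TPM, so the net gain of that group lay in SAA1 and SAA2. The near-equal sums of the 8 genes in Control and aHepGHRkd hid opposite changes. LCN2 went from 152 to 654 TPM and ORM2 from 133 to 522, while WFDC21 went from 1374 to 548 and ORM1 from 2360 to 2091.

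**Figure D3:**
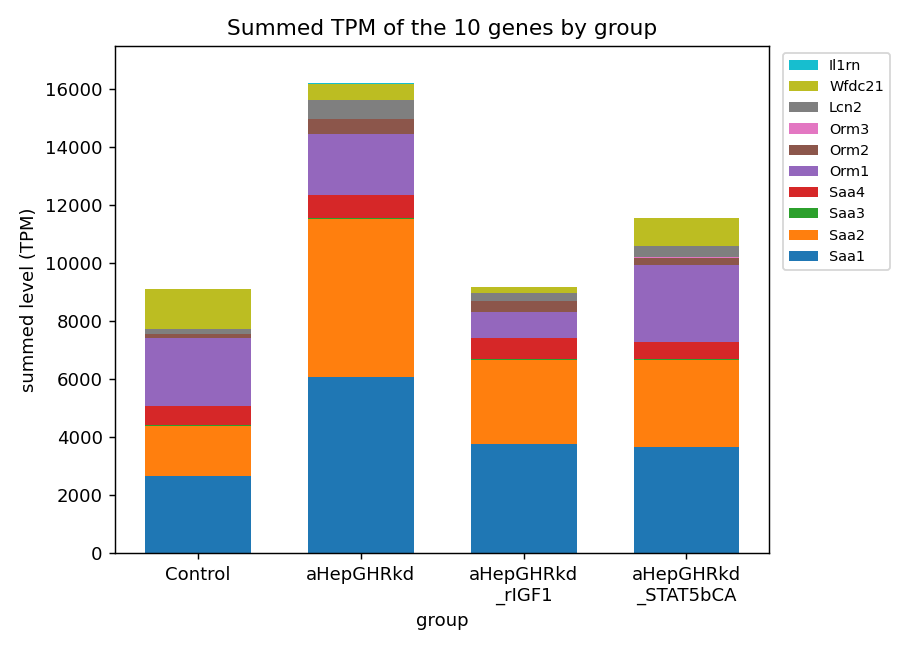
Summed level of the 10 genes in TPM (y axis, linear from 0) in the 4 groups (x axis), with each gene a coloured part of the bar in the order of the legend. The bar of aHepGHRkd reaches 16198 TPM, mostly SAA1 and SAA2, and the bars of Control (9099) and aHepGHRkd_rIGF1 (9183) are nearly as tall as each other but differ in ORM1 and WFDC21.

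Levels in the supplemented groups can be set beside Control by TPM only, as a description without a test. In aHepGHRkd_STAT5bCA, ORM3 stood at 2.60 times Control, LCN2 at 2.55, ORM2 at 1.85, SAA2 at 1.73, IL1RN at 1.67 and SAA1 at 1.38. With rIGF1 the same genes stood at 1.61, 1.82, 2.93, 1.67, 2.44 and 1.42 times Control. All 6 genes that rose after Ghr loss thus remained above Control by TPM in both supplemented groups, ORM2 and IL1RN more with rIGF1, ORM3 and LCN2 more with STAT5bCA. Between the supplements, WFDC21 was 5.06 times and ORM1 3.02 times as high with STAT5bCA as with rIGF1.

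The promoter windows share the C/EBP-type letters more widely. Of the 8 members with an entry in the RefSeq table (ORM1 and WFDC21 have none), 7 hold TTGCNNAA on either strand, the exception being IL1RN, and 9.57% of all 32841 windows of the table hold it. The 7 is a count of genes and the 9.57% a share of windows, and the 8 genes have 10 windows. SAA1 with SAA2 and ORM2 with ORM3 are near copies, so their matches are not separate observations. Whether the letters are more frequent in the members was not tested. SAA3 and SAA4, which did not pass in any comparison, hold it too. The STAT-type letters TTCNNNGAA occur in 0 of the 8 genes (7.02% of all windows), the NF-kappaB consensus in 0 (3.90%), TATAAA in 2 (12.4%) and the glucocorticoid receptor half-site letters TGTTCT in 1 (16.1%). With shares this low, a count of 0 among 8 genes is near the background. Only these letters within 250 bases were searched, so the counts of 0 do not show that such sites are absent. A match describes letters in a window and does not show that a factor binds there. Apart from the SAA1 with SAA2 and ORM2 with ORM3 pairs, the 26 other pairs of windows were between 56.9% and 70.6% identical.

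After Ghr loss, other acute phase genes did not follow the members as a group. Of 28 other positive acute phase genes, 6 rose and 6 fell after Ghr loss, with a median log2 ratio of 0.14. Of all detected coding genes, 2.41% were called higher and 2.82% lower there. The 4 with the smallest p in the authors' deposited table were the protease inhibitor gene Serpina3k, which fell to 0.232 of Control (adjusted p = 1.60e-51), Crp, C-reactive protein, which fell to 0.387 (adjusted p = 5.06e-22), Serpina3m, which rose 1.59-fold (adjusted p = 1.16e-06), and the metalloreductase gene Steap4, which rose 2.67-fold (adjusted p = 2.04e-06). Hp, the gene of the haemoglobin-binding haptoglobin, rose 1.46-fold (the authors' deposited table, adjusted p = 0.0119). The remaining calls of the positive list were Serpina3n, Itih4 and Hamp higher and C3, Mbl1, C9 and Lbp lower. Of 12 negative acute phase genes, 2 rose and 2 fell, with a median log2 ratio of 0.12. These were, from the authors' deposited table, the corticosteroid carrier Serpina6 (2.25-fold, adjusted p = 2.51e-15), transthyretin Ttr (1.38-fold, adjusted p = 0.00386), transferrin Trf (0.598, adjusted p = 1.43e-08) and fetuin Fetub (0.650, adjusted p = 2.47e-06).

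Neither list had a call with rIGF1 (median log2 ratios of -0.28 and -0.12). Even so, all 28 positive genes had deposited ratios to aHepGHRkd below 1 with rIGF1, as the members did. Of the 12 negative genes, 10 had deposited ratios below 1. These counts depend on the scaling, since the deposited ratios differed from the TPM ratios by a median of -0.10 on the log2 scale. By group TPM, several genes of both lists, such as Serpina3m and Ttr, were higher with rIGF1 than in aHepGHRkd. All 10 members were lower by TPM too. With STAT5bCA, 9 of the 28 positive genes rose and 2 fell, with a median log2 ratio of -0.0076. Of the members 0 of 10 rose, a count near the share of the detected coding genes (2.61%), and the difference between the lists was not tested. The authors' deposited table gives A2m, a protease trap, a ratio of 68.0 from a level of 0.0990 TPM (adjusted p = 4.02e-81), Mbl2 2.02 (adjusted p = 1.89e-14), ceruloplasmin Cp 1.78 (adjusted p = 7.77e-12) and Crp 2.17 (adjusted p = 6.47e-10). The 2 that fell, named after their values were seen, were Hamp, the iron hormone hepcidin (0.603, adjusted p = 0.000818), and Steap4 (0.496, adjusted p = 0.0223), all from the authors' deposited table. Of the negative list, 4 of 12 rose and none fell with STAT5bCA.

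The genes that carry cytokine signals to these promoters gave no call in any comparison, 0 of 22. That count is near the shares of all detected coding genes, 2.41% called higher and 2.82% lower after Ghr loss. Among the 22 genes, Il6ra, Stat3, Socs3, Cebpb and Nfkbia had an adjusted p of 1 throughout the authors' deposited table. Nearest to a call after Ghr loss were Cebpa (ratio 0.713, adjusted p = 0.0546), Il1rap (0.820, adjusted p = 0.0643) and Tnfrsf1a (1.33, adjusted p = 0.0888), all from the authors' deposited table. Socs3, which STAT3 induces as a feedback inhibitor, stood at 9.47, 9.20, 8.50 and 9.65 TPM. The median log2 ratio of the 22 genes after Ghr loss was 0.05, with 14 ratios above 1 and 8 below. With STAT5bCA 4 of their ratios were above 1 and 18 below. Of 15 cytokine ligand genes, 8 reached 0.1 TPM. Il6 was listed at 0 in Control and at most 0.0278 TPM elsewhere, and Il1b lay between 1.16 and 1.43 TPM. After Ghr loss and with rIGF1 none of the ligand genes was called, and with STAT5bCA the authors' deposited table shows Csf1 up 1.51-fold (adjusted p = 0.0176) and Cxcl1 down to 0.467 (adjusted p = 0.0494).

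Receptors and partners of the member proteins were mostly without a call. Of 18 genes, 16 were detected. Cd36, a scavenger receptor that binds serum amyloid A, rose 2.90-fold after Ghr loss (the authors' deposited table, adjusted p = 9.58e-08). With STAT5bCA the authors' deposited table gives rises of Tlr2 (1.88-fold, adjusted p = 0.00716) and of the asialoglycoprotein receptor genes Asgr1 (1.44-fold, adjusted p = 0.00366) and Asgr2 (1.40-fold, adjusted p = 0.00153). Apoa1, the main protein of the lipoprotein that carries serum amyloid A, stood at 0.948 of Control (adjusted p = 1, the authors' deposited table). Of the other lipocalin genes, 8 of 16 were detected and Obp2a alone was called, falling to 0.169 of Control (adjusted p = 1.42e-06, the authors' deposited table). Of 13 other WAP domain genes, 8 were detected and 0 were called in any comparison, a count near the shares of all detected coding genes given above (2.41% higher and 2.82% lower after Ghr loss).

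**Figure D4:**
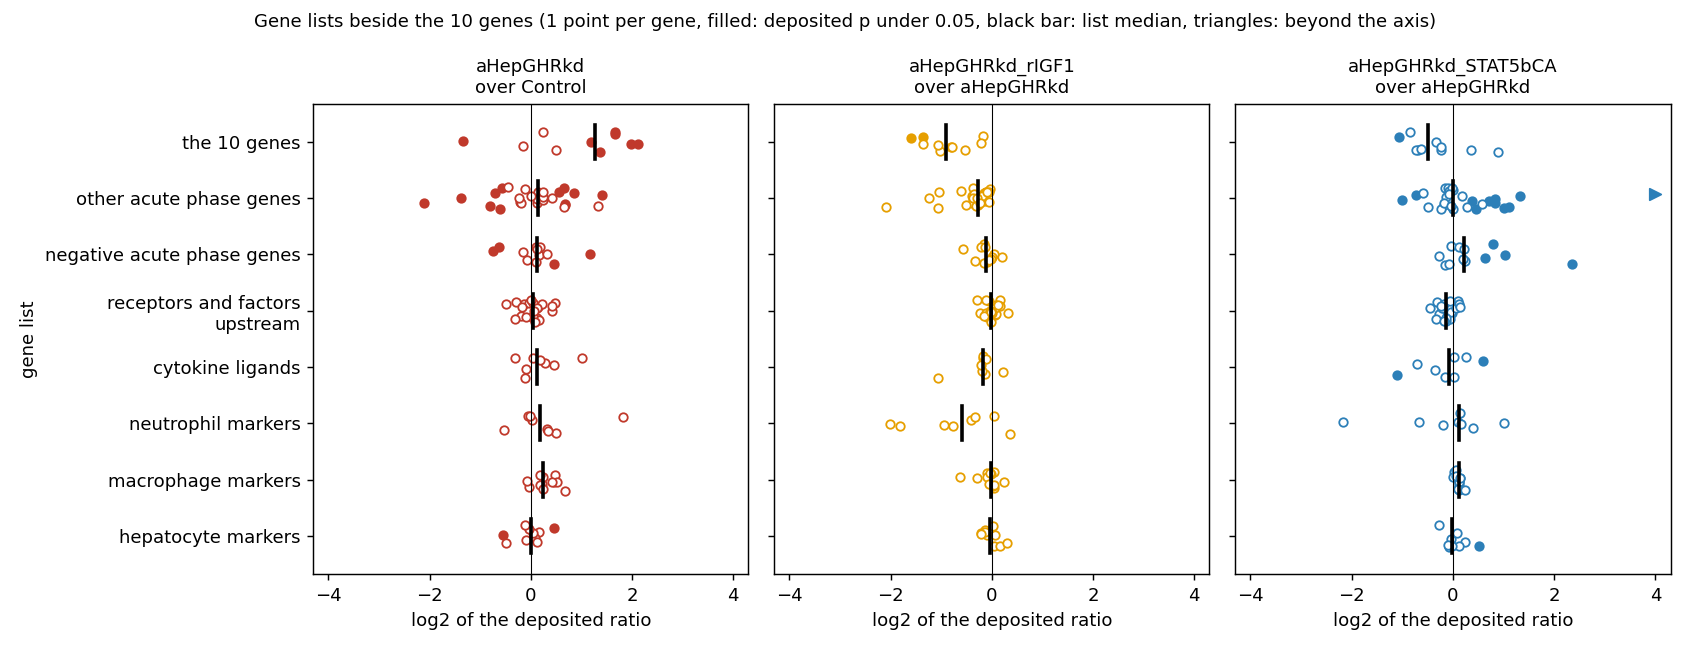
Deposited log2 ratio (x axis) of each detected gene in 8 lists (rows) in the 3 comparisons (panels), filled where the deposited p is under 0.05, with a black bar at the list median and a triangle for a gene beyond the axis. In aHepGHRkd over Control the median of the 10 genes is 1.28, and that of the other positive acute phase genes is 0.14.

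LCN2, SAA3 and IL1RN are also made by neutrophils and macrophages, so markers of other cells were read beside them. None of the neutrophil, macrophage, stellate, endothelial, cholangiocyte and lymphocyte markers was called in any comparison. Calls were rare among all detected coding genes too, 2.41% higher and 2.82% lower after Ghr loss. The 8 detected neutrophil markers summed to 11.8, 13.5, 11.6 and 14.5 TPM, mostly from S100a8 at 3.59, 3.63, 4.13 and 4.60 TPM and S100a9 at 6.05, 7.45, 6.00 and 7.67 TPM. With rIGF1, where all members had ratios below 1 and LCN2 stood at 0.391, 6 of the 8 neutrophil markers also had ratios below 1 in the authors' deposited table, with a median log2 ratio of -0.59. S100a8 had a ratio of 1.04 there and S100a9 a ratio of 0.750. Several other neutrophil markers lay near the floor with rIGF1, such as Ngp at 0.0661 and Elane at 0.0503 TPM. After Ghr loss, where LCN2 rose, the median of the neutrophil markers was 0.18, and 5 of the 8 had ratios above 1 in the authors' deposited table. The 12 macrophage markers summed to 168, 207, 209 and 215 TPM, with Clec4f at 20.8, 24.6, 26.6 and 25.4 and Adgre1 at 1.14, 1.61, 1.73 and 1.56. Of these 12, 10 had ratios above 1 after Ghr loss, with a median log2 ratio of 0.25. With rIGF1 5 of the 12 had ratios above 1, and with STAT5bCA all 12 did. Stellate markers summed to 99.8 TPM with rIGF1 against 62.3 in aHepGHRkd, and cholangiocyte markers to 65.1 against 47.8, the same comparison in which ORM1 and WFDC21 fell. Endothelial markers summed to between 82.8 and 97.1 TPM and lymphocyte markers to between 5.53 and 7.51 TPM, and no marker of these lists was at 0 in all groups. The part of such cells in the members' levels was not tested.

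The coding genes nearest in group pattern were found by the distance between log2(TPM + 1) values centred over the 4 groups, among 11113 non-members that reached 1 TPM. Sult1e1, estrogen sulfotransferase, was nearest to LCN2 (distance 0.471), SAA2 (0.329) and ORM3 (0.222), at 0.531, 3.14, 1.32 and 2.07 TPM. Gm3776 (0.0833) and Gsta1 (0.206) were nearest to ORM2, Tstd1 (0.0350) to IL1RN, Ugdh (0.0160) to SAA4, H2ac18 (0.0723) to SAA3 and Spink1 (0.222) to SAA1. Spink1 stood at 0.0367, 1.23, 0.700 and 0.539 TPM. The added 1 shrinks the folds of genes near or below 1 TPM, such as Spink1 and Sult1e1. For such genes a small distance need not mean similar folds. ORM1 was nearest to Slc37a1 (0.453) and Fgl1 (0.459). For WFDC21 the nearest were Csrp3 at 0.898 and Serpina11 at 0.900. The values were not scaled to a common range, so distances tend to be larger for genes with wide ranges. WFDC21 had the widest of the members, 7.10-fold from lowest to highest group, so distances cannot be compared between members. Among the members themselves, SAA1 and SAA2 were the closest pair (0.333), followed by ORM3 and LCN2 (0.439). With 4 values per gene, such distances describe the groups and carry no test.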

How the data were processed

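The deposited table holds 75798 features of exon-collapsed gene models on mm9, per the file headers, and 75794 were read, since 4 lines were empty in the copy used. STAR, featureCounts and edgeR were used by the authors, per the submitters' processing notes, with versions and strand use not given in the sources used here. TPM in the deposited table is 1 value per group, so depth is unknown, and fits per animal could not be made. Ratio (a linear fold) and p-value are the authors' edgeR output, per the file headers. The p-value was read as Benjamini-Hochberg adjusted because many values are exactly 1 (75054 with rIGF1) and repeat. With rIGF1 the deposited ratio differed from the TPM ratio by a median of -0.10 on the log2 scale. Computed here were calls at a deposited p under 0.05, list counts, TPM sums, distances and motif matches (Python 3.11.15, pandas 2.3.3), tested on simulated data. Named were all members, up to 4 called genes per list and comparison by smallest p, fixed markers such as Hp, and the 3 nearest genes per member, of which not all are printed. A few uncalled list genes, such as Cebpa and Ngp, were named after their values were seen. So were some called acute phase genes beyond those 4, such as Hamp. The members, lists and motifs were chosen with earlier results of these data known. Alternatives were stricter p, a fold minimum, TPM ratios, pseudocounts of 1 and 0.1, and rescaling.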

Additional observations from a re-analysis of the deposited data

How the results depend on the processing

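Across 150 alternative log2 ratios of the members (TPM ratios, pseudocounts, no 20 most abundant genes, centring), 0 changed sign, with shifts from -0.25 to 0.15. These settings rescale the same deposited values, so sign changes were unlikely. The use of strand and the counting of shared reads could not be varied. Members called higher after Ghr loss were 5 at a deposited p under 0.01, without ORM3, and 6 otherwise. Members called lower with rIGF1 went from 2 to 0 at that threshold, by its construction, since the p of ORM1 and of WFDC21 lie between 0.01 and 0.05. No paired analysis was possible because the table holds 1 value per group, and for the same reason no replicate was left out. With depth unknown, the precision of low genes such as IL1RN and ORM3 cannot be given.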
